A study of Arabidopsis thaliana with 9 samples.

Results

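Acetyl groups on histone lysines are written by histone acetyltransferases (HATs) and erased by histone deacetylases (HDACs), and acetylated histones are typical of transcribed genes. The enzymes described here are 10 chosen by name, through a rule that uses no measured level: the acetyltransferases HAG1 (also called GCN5), HAC1 and HAF2, the RPD3-type deacetylases HDA6, HDA9, HDA15 and HDA19, and the plant-specific HD2-type deacetylases HD2A, HD2B and HD2C. Earlier results of these data were known when the choice was made. Of these 10 genes, 9 are among the 17680 genes of the expression table. HAF2 (AT3G19040), which encodes a TAF1-type acetyltransferase, is not in the table and is not analysed here.

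Steady state mRNA levels were compared between 3 groups of whole Arabidopsis thaliana seedlings, all wild type of the Columbia-0 accession and all stratified for 4 days. Seeds of D and R1h got 3 h of white light for germination and then 5 min of far-red light, which returns phytochrome to its inactive form. D seedlings then grew in darkness for 2 days, and R1h seedlings for 47 h, followed by 1 h under red light (10 µE per square metre and second). The WLc group spent its 2 days of growth in uninterrupted white light (100 µE in the same unit). Each group had 3 libraries, but the table gives 1 value per gene and group, the authors' mean, so no value below has a replicate check, and no SD, n or p-value can be given.

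HATs of the GCN5 class work inside SAGA-type complexes, those of the HAC class resemble the p300/CBP coactivators of animals, and TAF1-type enzymes are part of the general transcription factor TFIID. RPD3-type HDACs need zinc and act in co-repressor complexes, whereas the HD2 proteins occur only in plants and were first purified from maize. In light signalling of seedlings, GCN5 and HDA19 are known as opposing regulators of acetylation at light-responsive genes, and HDA15 is known as a partner of phytochrome-interacting factors (PIFs), transcription factors that maintain growth in the dark.

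Levels are pseudo-counts, that is, reads in the last 500 bases of a transcript after adjustment to a common library size. All transcripts of the listed genes with a level are longer than that in RefSeq's TAIR10.1 models. Only uniquely mapped reads were counted, and in those models parts of the last 500 bases of HDA9 and of the bromodomain gene GTE9 recur in another gene. Levels of the other listed genes refer to the same length of RNA, and those of HDA9 and GTE9 to less. Over all genes the levels added up to 11.4 M for D, 12.0 M for R1h and 12.5 M for WLc, and a level of 100 stood for about 302 reads in D. Genes that respond strongly to light were read as a check of the group names. CAB2, a chlorophyll-binding protein gene, was at 301 in D, 5767 in R1h and 131109 in WLc, and PIL1, a shade-responsive PIF target, was at 662, 34.8 and 4.51. ELIP1, a marker of first light, was at 31.4, 4908 and 59.1. PORA, a dark marker, was at 16982, 20770 and 73.4, so it set WLc apart but was not lower in R1h than in D. Fold changes are differences of log2(level + 1), and genes at least 2-fold apart on this scale are called higher or lower. Brackets hold 95% intervals from the exact binomial distribution of the reads, which take in the error of counting but no variation among seedlings or libraries. For differences between the fold changes of 2 genes they come from a normal approximation to the same reads. In these bulk samples, fewer cells of a type and less RNA per cell cannot be told apart.

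Across the 9 genes, HD2B and HD2C had the highest levels and HD2A had the widest difference between groups. No enzyme of the 9 differed 2-fold after 1 h of red light, where 3.89% of the 17299 tested genes were called higher and 2.46% lower. In WLc against D, HD2A was the one enzyme of the 9 called higher, against 13.9% of all tested genes, and no enzyme of the 9 was called lower, against 10.7%. In WLc against R1h none of the 9 was called in either direction, against 12.0% of all tested genes higher and 10.0% lower. These shares give no sign that the 9 genes were called more often than genes at large. The median log2 fold change of the 9 was 0.05 in R1h and 0.32 in WLc, both against D, while that of all tested genes was 0.00 and 0.02. The R1h median of the 9 became -0.02 after scaling to the column total and -0.01 after quantile normalization, with 4 of the 9 above D instead of 6. The R1h median of all tested genes became -0.06 and -0.02 in these settings. After scaling to the column total the WLc median became 0.19 for the 9 and -0.11 for all tested genes.

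**Figure D1:**
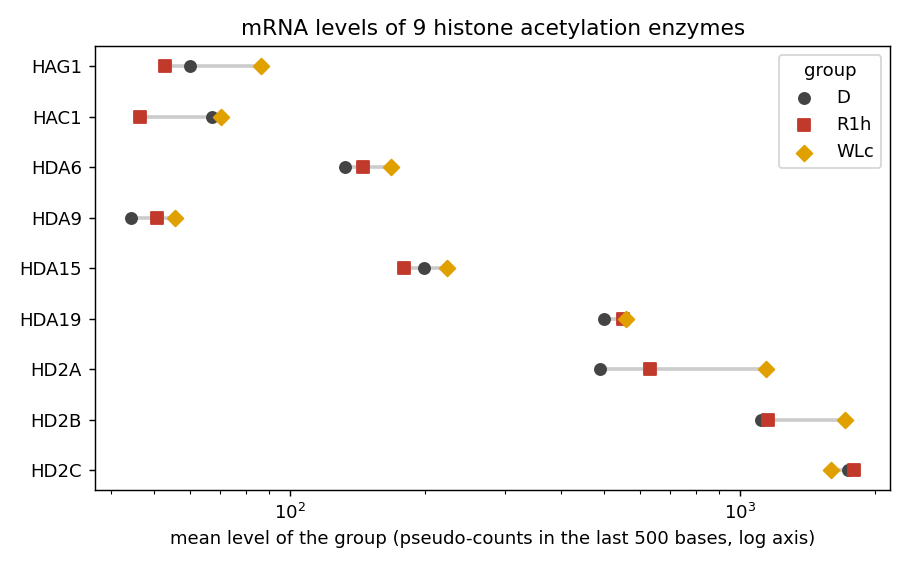
Mean level of each of the 9 enzymes in D (circles), R1h (squares) and WLc (diamonds), in pseudo-counts on a log axis, 1 point for the authors' mean of a group. HD2C was highest in D and R1h and HD2B in WLc, and the HD2A points span 489 to 1140.

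In D the levels ran, from the highest, HD2C at 1741, HD2B at 1115, HDA19 at 499, HD2A at 489, HDA15 at 199, HDA6 at 132, HAC1 at 67.0, HAG1 at 59.9 and HDA9 at 44.4. HDA19 and HD2A stood on 1506 and 1474 reads there, and HAC1 and HAG1 on 202 and 181, so the order within each of these pairs is within counting error. In WLc HD2B, at 1714, and HD2C, at 1592, had changed places, as had HD2A, at 1140, and HDA19, at 558, and HAG1, at 86.2, and HAC1, at 70.2.

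HAG1 (AT3G54610, chr3:20213406-20217653 in TAIR10.1, forward strand, 13 exons), the catalytic subunit of plant SAGA-type complexes, was at 59.9 in D, 52.7 in R1h and 86.2 in WLc. It was thus highest in WLc, with a log2 fold change of 0.52 [0.25, 0.81] against D and of 0.70 [0.42, 1.00] against R1h. The R1h value was -0.18 [-0.50, 0.13] against D, and its interval includes equal levels.

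HAC1 (AT1G79000, chr1:29716350-29724748, reverse strand, 18 exons), a p300/CBP-type enzyme, was at 67.0 in D, 46.4 in R1h and 70.2 in WLc. It was the only one of the 9 whose interval lay below equal levels in R1h against D, at -0.52 [-0.85, -0.21], against 25.0% of all tested genes. In WLc against D its value was 0.07 [-0.22, 0.35], which became -0.07 after quantile normalization and -0.06 after scaling to the column total, and against R1h it was 0.59 [0.28, 0.91]. Its paralogs were looked at after their values were seen. HAC12 (AT1G16710) was at 75.3, 47.6 and 74.6 in D, R1h and WLc, with -0.65 [-0.97, -0.36] in R1h against D, and the difference between its fold change and that of HAC1 was -0.13 [-0.56, 0.30]. HAC5 (AT3G12980) was at 85.1, 84.5 and 86.1, and its R1h fold change lay above that of HAC1 by 0.52 [0.12, 0.92]. Thus HAC5 and HAC1 differed beyond counting error after red light, and HAC12 and HAC1 did not.

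Among the RPD3-type deacetylases, HDA6 (AT5G63110, chr5:25315506-25318347, reverse strand, 6 exons), which silences transposons and ribosomal RNA genes, was at 132 in D, 145 in R1h and 168 in WLc. The order was D, R1h, WLc, and the interval lay above equal levels in WLc against D, at 0.34 [0.15, 0.54], and against R1h, at 0.21 [0.02, 0.39], but not in R1h against D, at 0.13 [-0.06, 0.33].

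HDA9 (AT3G44680, chr3:16226519-16230009, reverse strand, 14 exons), a deacetylase with roles in flowering and leaf ageing, was the lowest of the 9 in D, at 44.4, with 50.6 in R1h and 55.5 in WLc. Its fold changes against D were 0.19 [-0.15, 0.54] in R1h and 0.32 [-0.01, 0.66] in WLc, and both intervals include equal levels. HDA9 has a near copy in the genome, so its level may be too low and its rank among the 9 is uncertain. Of the 451 stretches of 50 bases, the read length, in its last 500 bases, 312 (69.2%) occur in no other gene model of TAIR10.1, and 125 recur in HDA17 (AT3G44490), which is not in the table. Only uniquely mapped reads were counted, and for the other 8 genes all 451 stretches were unique.

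HDA15 (AT3G18520, chr3:6361159-6365705, forward strand, 16 exons), the PIF-associated enzyme, was at 199 in D, 180 in R1h and 224 in WLc. It was lowest in R1h, at -0.15 [-0.32, 0.02] against D, and highest in WLc, at 0.17 [0.01, 0.33] against D and 0.32 [0.15, 0.48] against R1h. HDA19 (AT4G38130, chr4:17896278-17899509, reverse strand, 7 exons), the most studied RPD3-type enzyme of Arabidopsis and a partner of TOPLESS co-repressors, was at 499, 548 and 558. Its fold changes against D were 0.14 [0.03, 0.24] in R1h and 0.16 [0.06, 0.26] in WLc as deposited, 0.08 and 0.26 with quantile normalization, and 0.07 and 0.03 with columns scaled to their totals. WLc against R1h gave 0.03 [-0.07, 0.12] as deposited, -0.04 after scaling to the column total and 0.18 after quantile normalization, so whether and in which direction HDA19 differed there depends on the scaling. In R1h against D the fold change of HDA15 lay below that of HDA19, by -0.28 [-0.48, -0.09], and in WLc against D the difference was 0.01 [-0.18, 0.20].

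**Figure D2:**
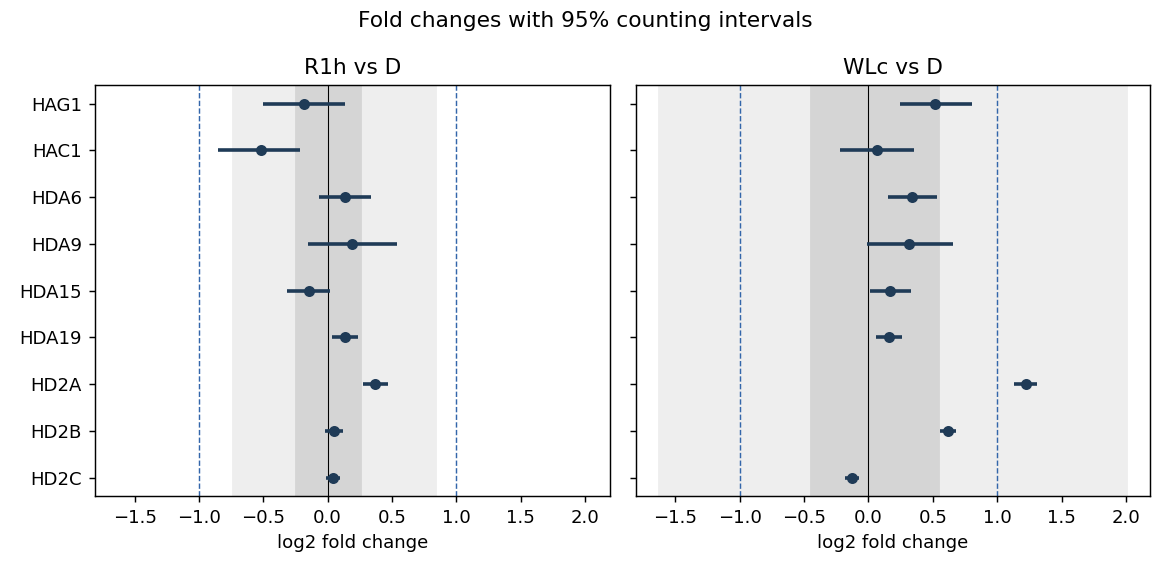
Log2 fold changes of the 9 enzymes in R1h (left) and WLc (right) against D, with bars for 95% counting intervals. The dark and light bands hold the middle 50% and 90% of all tested genes, dashed lines mark 2-fold, and only HD2A in WLc, at 1.22, lies past a dashed line.

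HD2A (AT3G44750, chr3:16297656-16299876, forward strand, 8 exons), which RefSeq lists as HDA3, was at 489 in D, 632 in R1h and 1140 in WLc. The level was lowest in D, intermediate in R1h and highest in WLc. Its log2 fold change was 0.37 [0.27, 0.47] in R1h and 1.22 [1.13, 1.31] in WLc against D, and 0.85 [0.77, 0.93] in WLc against R1h. In WLc against D, 10.9% of all tested genes had a fold change at least as high, and in R1h against D 17.1% had. After quantile normalization the WLc value was 1.35 against D and 1.04 against R1h, so that the second comparison also passed 2-fold.

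HD2B (AT5G22650, chr5:7533946-7536496, forward strand, 9 exons), a deacetylase with natural variation linked to seed dormancy, was at 1115 in D, 1156 in R1h and 1714 in WLc. Dark and red-treated seedlings did not differ beyond counting error, at 0.05 [-0.02, 0.12], a value that became -0.04 after quantile normalization and -0.02 after scaling to the column total. WLc lay above both, by 0.62 [0.56, 0.68] against D and 0.57 [0.51, 0.63] against R1h. HD2C (AT5G03740, chr5:981859-984289, forward strand, 8 exons), which is known for roles in abscisic acid and stress responses, was at 1741, 1795 and 1592. Its deposited level in WLc gave -0.13 [-0.19, -0.07] against D and -0.17 [-0.23, -0.12] against R1h, but both values were 0.04 after quantile normalization, so the direction depends on the scaling. In R1h against D it was 0.04 [-0.01, 0.10], and below 0, at -0.01 and -0.02, after quantile normalization and scaling to the column total.

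Counting intervals lay above equal levels for HDA19 and HD2A in R1h against D, 2 of 9 beside 28.1% of all tested genes. In WLc against D they did for HAG1, HDA6, HDA15, HDA19, HD2A and HD2B, 6 of 9 beside 37.5% of all tested genes, and below equal levels for HD2C, 1 of 9 beside 36.2%. In WLc against R1h they lay above for HAG1, HAC1, HDA6, HDA15, HD2A and HD2B, 6 of 9 beside 36.5%, and below for HD2C, 1 of 9 beside 35.5%. Intervals are narrower for genes with more reads, so these counts depend on level. They also depend on scaling. With columns scaled to their totals, a setting added for the intervals after the data were seen, those above equal levels were HD2A alone in R1h against D, HAG1, HDA6, HD2A and HD2B in WLc against D (4 of 9), and HAG1, HAC1, HDA15, HD2A and HD2B in WLc against R1h (5 of 9). Of all tested genes, 23.0% then lay above equal levels in R1h against D, 31.3% in WLc against D and 33.0% in WLc against R1h. Those of HAC1 and HDA15 lay below equal levels in R1h against D, beside 31.1% of all tested genes. That of HD2C did in both WLc comparisons, beside 43.0% against D and 38.8% against R1h.

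Because HD2 genes differ in the same columns, ratios between them need no scaling between groups. HD2A stood at 0.281 of HD2C in D, 0.352 in R1h and 0.716 in WLc. HD2B stood at 0.640, 0.644 and 1.08 of HD2C. The fold change in WLc against D of HD2A was above that of HD2C by 1.35 [1.25, 1.46] and above that of HD2B by 0.60 [0.49, 0.71], and that of HD2B was above that of HD2C by 0.75 [0.67, 0.83]. In R1h against D, HD2A was above HD2C by 0.33 [0.21, 0.44], while HD2B and HD2C differed by less than counting error, 0.01 [-0.08, 0.10]. The fourth gene of the family, HD2D (AT2G27840), which was not among the 10, was at 265 in D, 350 in R1h and 615 in WLc, with 0.40 [0.27, 0.54] and 1.21 [1.10, 1.34] against D. Its WLc fold change differed from that of HD2A by -0.01 [-0.15, 0.14].

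Summed over the 4 genes, HD2 levels were 3609 in D, 3933 in R1h and 5060 in WLc. HD2C made up 48.2% of that sum in D, 45.6% in R1h and 31.5% in WLc. HD2A made up 13.5%, 16.1% and 22.5%, HD2B 30.9%, 29.4% and 33.9%, and HD2D 7.34%, 8.90% and 12.1%. HD2C was thus the largest share by a wide margin in D, and in WLc the shares of HD2B and HD2C were close.

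**Figure D3:**
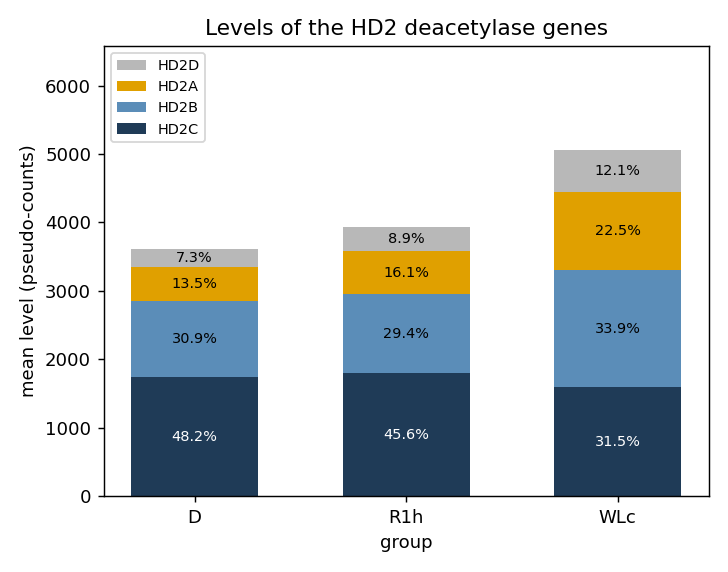
Levels of the 4 HD2 genes stacked per group in pseudo-counts, with each gene's share of the sum printed in its segment. The HD2C segment keeps a similar height in all groups while the HD2A segment grows from 13.5% in D to 22.5% in WLc.

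Since the HD2 proteins are found in nucleoli, 8 genes of nucleolar proteins that build ribosomes were set beside them, chosen with results of these data known. All 8 were higher in R1h and in WLc than in D by value and under each scaling tried, with medians of 0.34 and 1.15, and 6 of 8 were called higher in WLc, beside 13.9% of all tested genes. NUC1 (AT1G48920), nucleolin, was at 1639 in D, 2146 in R1h and 3376 in WLc, 1.04 [0.99, 1.09] in WLc against D, and no longer 2-fold, at 0.91, when scaled to the column total. NOP56 (AT1G56110), a core protein of the complexes that methylate ribosomal RNA, was at 809, 1038 and 2515, with 1.63 [1.57, 1.70] in WLc against D. Further called genes were FIB2 (AT4G25630), a fibrillarin that carries out that methylation, at 1.35, the NOP56-like gene AT3G12860 at 1.36, and the NOP58 genes AT5G27120 at 1.26 and AT3G05060 at 1.02, the latter at 0.89 when scaled to the column total. FIB1 (AT5G52470) and CBF5 (AT3G57150), which makes pseudouridine in ribosomal RNA, were at 0.55 and 0.71.

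**Figure D4:**
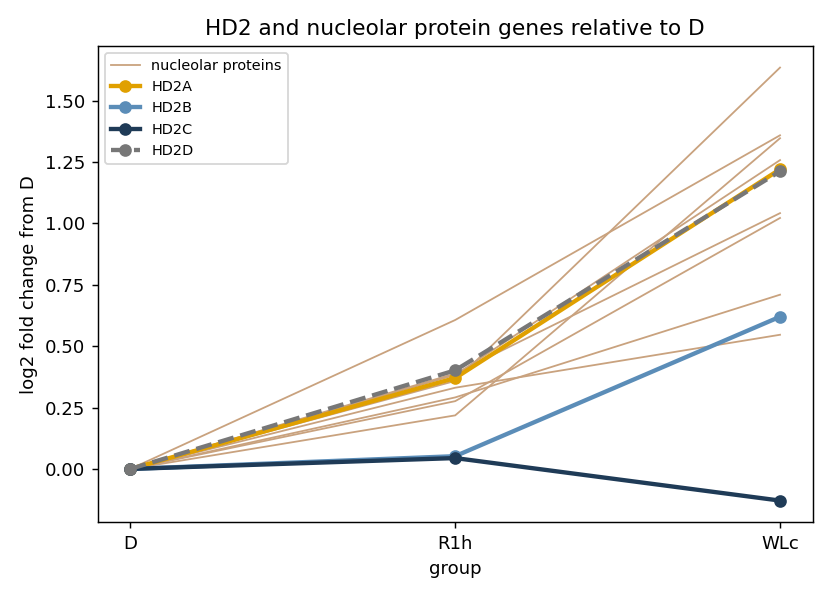
Log2 fold change from D of the 4 HD2 genes (thick lines) and the 8 nucleolar protein genes (thin lines) in each group. Lines join the values of 1 gene and mark no time course. HD2A and HD2D overlie each other at 0.37 and 0.40 in R1h and at 1.22 and 1.21 in WLc.

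The sequence upstream of the annotated start is shown for HD2A and HD2C, the HD2 genes with the widest and the narrowest difference in WLc, and for NOP56. Each line has 250 bases in TAIR10.1, read 5′ to 3′ on the gene's strand and ending next to the first transcribed base of RefSeq's model. Capitals mark matches on either strand to 4 motifs: CACGTG (the G-box, a binding sequence of PIFs), CACATG (the PIF-binding E-box), AAACCCTA (the telo box, known from genes of ribosome formation) and TGGGCC (a site II type element, known from the same genes).
HD2A, chr3:16297406-16297655, forward strand: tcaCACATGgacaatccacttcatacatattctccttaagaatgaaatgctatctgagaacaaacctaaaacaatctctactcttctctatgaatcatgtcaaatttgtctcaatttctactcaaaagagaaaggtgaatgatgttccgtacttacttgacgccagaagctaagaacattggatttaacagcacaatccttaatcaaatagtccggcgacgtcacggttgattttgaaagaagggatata
HD2C, chr5:981609-981858, forward strand: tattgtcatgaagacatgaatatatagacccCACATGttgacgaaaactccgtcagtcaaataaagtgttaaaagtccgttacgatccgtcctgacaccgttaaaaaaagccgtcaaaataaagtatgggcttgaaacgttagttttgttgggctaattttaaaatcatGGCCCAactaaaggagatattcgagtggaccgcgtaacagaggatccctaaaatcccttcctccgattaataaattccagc
NOP56, chr1:20986953-20987202, reverse strand: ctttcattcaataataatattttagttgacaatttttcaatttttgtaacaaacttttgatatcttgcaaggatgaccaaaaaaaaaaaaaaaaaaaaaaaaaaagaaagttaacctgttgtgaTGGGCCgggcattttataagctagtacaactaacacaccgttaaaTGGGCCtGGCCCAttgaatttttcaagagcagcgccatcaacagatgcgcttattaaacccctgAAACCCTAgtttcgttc

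The window of HD2A lies whole within AT3G44740, a gene on the opposite strand, and 75 bases of that of NOP56 lie in AT1G56120, while no annotated gene overlaps that of HD2C. CACATG, found in 11.1% of 27443 windows of protein-coding genes, was present in 2 of the 9 enzyme genes, HD2A at 247 bases and HD2C at 219 bases before the start. CACGTG (6.49% of windows) and AAACCCTA (4.49%) were in none of the 9. TGGGCC (13.7%) was in 2 of 9, HDA19 with 2 copies, at 63 and 30 bases before the start, and HD2C with 1, at 81 bases. Of the 8 nucleolar genes, 5 held TGGGCC, 3 held AAACCCTA, 1 held CACGTG and none held CACATG. NOP56, shown above, held both TGGGCC and AAACCCTA and does not stand for all 8, since NUC1, FIB2 and CBF5 held neither. HD2D, whose fold changes were near those of HD2A, held none of the 4 motifs. Among the 17342 windows of genes in the expression table, the shares were 11.2% for CACATG, 7.71% for CACGTG, 3.44% for AAACCCTA and 16.9% for TGGGCC. A match is a string of letters in this window and not a mapped binding site.

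The other enzymes of both kinds were taken from a list. Of the other acetyltransferases 8 of 9 were tested, and none was called against D in R1h or WLc. Genes at large had 3.89% called higher and 2.46% lower in R1h, and 13.9% and 10.7% in WLc. In WLc against R1h the shares were 12.0% and 10.0%. HAC4 (AT1G55970), another p300/CBP-type gene, was at 23.8 in D, 19.8 in R1h and 48.3 in WLc. It was called higher in WLc against R1h, at 1.24 [0.84, 1.74], and came to 0.99 [0.60, 1.45] against D, just short of 2-fold. Over all 10 acetyltransferases with values, HAG1 and HAC1 included, the median was -0.12 in R1h and 0.09 in WLc, with 8 of 10 below D in R1h by value, where 49.5% of all tested genes were. In WLc 7 of 10 were above D as deposited, beside 51.3% of all tested genes, but 3 of 10 when scaled to the column total. That scaling moved the median of all tested genes from 0.02 to -0.11.

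Of the other deacetylases 7 of 11 were tested, none was called in R1h, and in WLc against D 3 were called higher and 1 lower. Of all tested genes, 3.89% were called higher and 2.46% lower in R1h, and 13.9% and 10.7% in WLc. In WLc against R1h 1 of the 7, HDA14, was called higher, at 1.36 [1.11, 1.64], and none lower, beside 12.0% and 10.0%. HDA14 (AT4G33470), a deacetylase known from plastids, was at 30.9 in D, 54.3 in R1h and 141 in WLc, 0.79 [0.44, 1.20] and 2.15 [1.86, 2.53] against D, and 4.50% of all tested genes had a WLc value at least as high. SRT1 (AT5G55760), a sirtuin that uses NAD, was at 24.6, 37.0 and 60.9, with 1.27 [0.91, 1.72] in WLc against D. HD2D was the third. HDA8 (AT1G08460), an RPD3-type gene, went the other way, at 153, 107 and 72.4, with -0.51 [-0.72, -0.30] in R1h and -1.07 [-1.32, -0.84] in WLc. Deacetylase genes thus ranged wider in WLc than the 9 studied enzymes did. Over all 14 deacetylases with values the median was 0.14 in R1h and 0.44 in WLc, and 12 of 14 were above D in WLc by value, where 51.3% of all tested genes were.

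Genes of partner proteins and of readers of acetylation were also taken from lists. None of 4 tested SAGA-type partners of acetyltransferases was called in any comparison. All 4 were below D in R1h by value, beside 49.5% of all tested genes, with a median of -0.28. Counting intervals lay below equal levels for 2 of the 4, beside 25.0% of all tested genes. The partners with the highest mean, the adaptors ADA2A (AT3G07740) and ADA2B (AT4G16420), were at 89.0, 87.6 and 114 and at 85.7, 62.6 and 81.1. Of 18 tested deacetylase partners 2 were called higher in WLc against D and none lower, with a median of 0.28. All tested genes had 13.9% higher and 10.7% lower there, so the partners' share of higher calls was near that of genes at large. In R1h against D none of the 18 was called, beside 3.89% and 2.46% of all tested genes. By value 12 of the 18 were below D there, beside 49.5% of all tested genes, with a median of -0.15. In WLc against R1h MSI5 was the 1 partner called higher, at 1.08 [0.69, 1.54], and none was lower, beside 12.0% and 10.0%. The partners called in WLc against D were MSI5 and TPR4. MSI5 (AT4G29730), a WD-repeat histone-binding protein, was at 18.1 in D, 23.1 in R1h and 49.97 in WLc, with 1.42 [1.01, 1.94]. TPR4 (AT3G15880), a TOPLESS-related co-repressor, was at 124, 151 and 282, with 1.17 [1.00, 1.36]. Among 12 bromodomain proteins, which bind acetylated histones, none was called and 10 were below D in R1h by value, with a median of -0.19. Counting intervals lay below equal levels there for 5 of the 12 and above for 1, beside 25.0% and 28.1% of all tested genes. GTE7 (AT5G65630) had the highest mean, at 1225, 1414 and 884, with 0.21 [0.14, 0.27] in R1h and -0.47 [-0.54, -0.40] in WLc, followed by GTE4 (AT1G06230) at 776, 682 and 841.

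**Figure D5:**
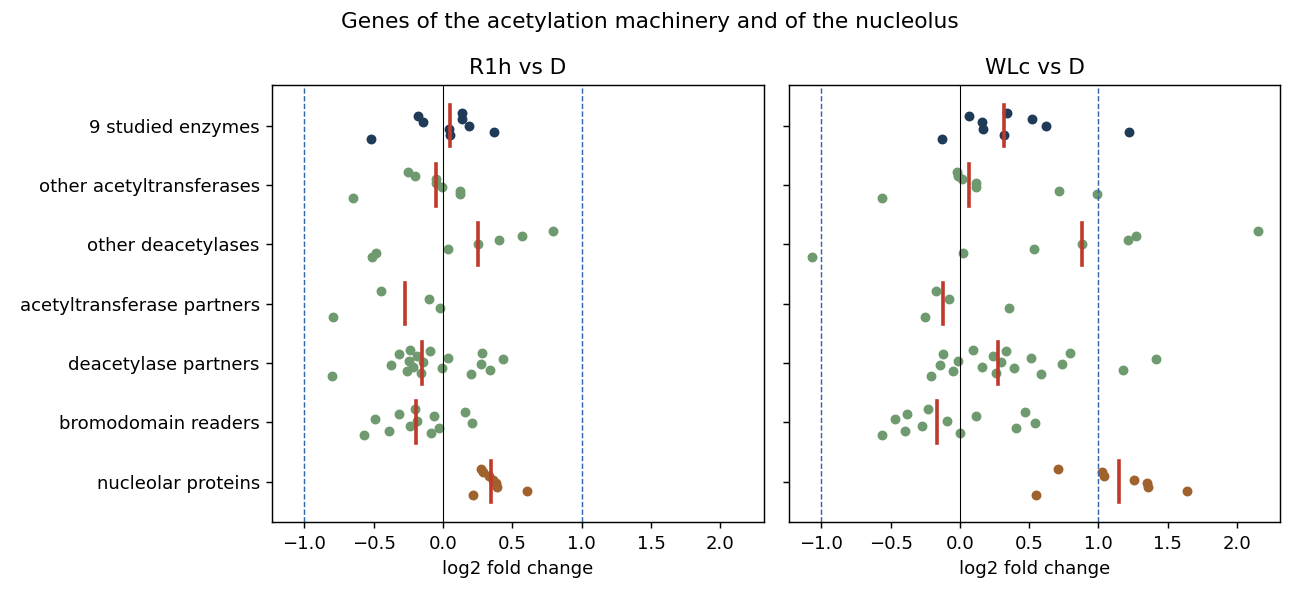
Log2 fold changes in R1h (left) and WLc (right) against D, 1 point per tested gene in each list, with a vertical bar for the list's median and dashed lines at 2-fold. In R1h no gene of these lists passes 2-fold, and in WLc the nucleolar genes have a median of 1.15 and the 9 studied enzymes one of 0.32.

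Genes with the pattern most like that of an enzyme were those nearest to it in the plane of both fold changes against D, among genes with a mean level of at least 100. This likeness rests on 3 group means only. Nearest to HD2A were AT5G17630, FAD7 (AT3G11170), a plastid fatty acid desaturase, and AT1G28140, at distances of 0.02 to 0.03 on the log2 scale. For HD2B they were GAPC2 (AT1G13440), a glyceraldehyde-3-phosphate dehydrogenase, AT4G00200 and AT1G21090, and for HD2C UBC27 (AT5G50870), a ubiquitin-conjugating enzyme, FOLK (AT5G58560), a farnesol kinase, and AT3G19540. For HDA19 they were AT2G44530, D6PKL2 (AT5G47750), a protein kinase, and AT3G62840, and for HAG1 INO80 (AT3G57300), a chromatin remodelling ATPase, ARO3 (AT4G36030) and BBD1 (AT1G75380). Among all tested genes, whatever their level, 67 lay within a distance of 0.1 of HD2A and 406 within that distance of HD2C.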

How the data were processed

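RNA of 9 libraries of whole seedlings was sequenced by a 3′-end method. The authors used Bowtie to place 50-base single-end reads on TAIR9 representative transcripts, allowing no mismatch, and counted unique reads on the coding strand within 500 bases of the 3′ end. Versions of Bowtie and edgeR were not given in the sources used here. What was deposited is a signal from the authors' edgeR run: pseudo-counts at a common library size, as the mean of 3 libraries per group. Tests on single libraries had been planned and could not be run on 1 mean per group.

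Here (Python 3.11.15, numpy 2.4.6, pandas 2.3.3, scipy 1.17.1, matplotlib 3.10.9), log2(value + 1) was compared for the 17299 genes with at least 10 in at least 1 group. Values were divided by the mean level of 1 read (0.331 in D, 0.330 in R1h and 0.327 in WLc) for exact conditional (Clopper-Pearson) 95% intervals, and these reached 0.33 to either side on the log2 scale for levels of 50 in both groups and 0.07 for 1000. The procedure was tested on simulated reads drawn with the same counting error that the intervals assume and no variation among libraries. That test checks the calculation only and cannot show how well the intervals hold for real libraries. All 9 measured enzymes passed the filter. The enzymes and lists were chosen with earlier results of these data known. Named from a list were the genes called in any comparison, or the 2 with the highest mean where none was. Outside this rule, HAC5 and HAC12 were named as paralogs of HAC1, and FIB1 and CBF5 so that all 8 nucleolar genes are given. The 3 nearest genes were named for HD2A, HD2B, HD2C, HDA19 and HAG1. Gene models and sequences come from RefSeq's TAIR10.1 annotation, in which 17628 of the table's 17680 locus codes were found. It is not the authors' TAIR9, and the files hold no coordinates. Other settings of pseudocount, filter, scaling and call size were tried.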

Additional observations from a re-analysis of the deposited data

How the results depend on the processing

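No paired analysis was possible because the table holds 1 mean per group and no value per library, and for the same reason no library could be left out. With 1.5-fold in place of 2-fold, 1542 genes were higher and 1357 lower in R1h against D, 4095 and 3433 in WLc against D, and 3814 and 3288 in WLc against R1h, and of the 9 enzymes 2 were higher in WLc against D and 3 in WLc against R1h. Requiring the whole counting interval beyond 2-fold left 426 genes higher and 235 lower in R1h against D. Quantile normalization put 1 enzyme, HD2A, 2-fold higher in WLc against R1h. The counts follow from the call size itself, and for the normalization the cause was not tested. HD2A was 2-fold higher in WLc against D under every pseudocount, filter and scaling tried, and scaling to the column total, which shifted the median of all genes in that comparison by -0.13, gave 1.09 for HD2A, 1.20 above that median. The median over the 9 enzymes, which has no test, turned from 0.05 to -0.02 and -0.01 in R1h against D after scaling to the column total and quantile normalization. That of all tested genes moved to -0.06 and -0.02 there. In WLc against D, scaling to the column total moved the median of the 9 from 0.32 to 0.19 and that of all tested genes to -0.11. Depth limits the genes at low levels most: HDA9 rested on 134 reads in D, and a difference of under 0.33 could not be resolved at a level of 50.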
